A study of Rattus norvegicus with 10 samples.

Results

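Transcripts of the AP-1 Fos and Jun family were measured in the left hippocampus of female rats. The family was taken as 8 named genes, Fos, Fosb, Fosl1, Fosl2, Jun, Junb, Jund and Atf3, and all 8 were found among the 17168 gene symbols of the deposited tables. The animals were 10 female transgenic rats of the TgF-344AD line, a model of Alzheimer's disease that carries mutant human APP and presenilin 1 genes driven by a prion promoter. Of these, 5 ate ordinary rodent chow (untreated) and 5 ate chow with RG2833, an inhibitor of the histone deacetylases HDAC1 and HDAC3, at 750 mg per kg of chow, from 5 months of age for 6 months. A blue food dye told the chows apart, and the labels do not say which chow held it. All animals were 11 months old when they were anaesthetised with ketamine and xylazine and perfused with cold saline before the hippocampus was frozen. Every animal of both groups carried the transgenes and had this anaesthesia, and no animal without the transgenes enters the comparison. The labels number the animals within each group and give no litters or library batches.

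AP-1 is a transcription factor made of pairs of basic leucine zipper (bZIP) proteins. A Fos protein (Fos, Fosb, Fosl1 or Fosl2) pairs with a Jun protein (Jun, Junb or Jund), whereas Jun proteins can also pair with each other, and the pair binds short palindromic DNA sites. In hippocampal neurons Fos, Fosb and Junb are immediate-early genes, transcribed within minutes of synaptic activity through the serum response factor SRF and the cAMP-responsive factor CREB. Fos transcripts are short-lived and mark recently active neurons, whereas Jund is expressed steadily. Atf3, a related bZIP gene, is induced by stress and injury and pairs with Jun proteins.

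Total estimated counts ran from 8764266 to 11311673 per library, and 11791 genes, among them all 8 members, passed the filter on low counts. Ribosomal RNA loci took between 2.70% and 5.36% of counts in untreated and between 1.13% and 1.96% in RG2833 libraries, so this share separated the groups. Markers of hippocampal excitatory neurons, such as Slc17a7, Prox1 and Wfs1, were present in every library, and the summed level of the 10 listed markers ran from 5725 to 8697 CPM (counts per 1000000 after TMM library scaling) in untreated and from 8323 to 8996 CPM in RG2833 animals. The highest untreated sum was that of replicate 4, and the other untreated animals ran from 5725 to 7112 CPM, below every RG2833 animal. The median log2 fold change of these markers was 0.50. By edgeR's quasi-likelihood test 0 of the 10 were called (5 at an unadjusted p under 0.05, a limit that 24.5% of all tested genes met). DESeq2 called 4 higher and 1 lower, where it called 11% of all tested genes. Choroid plexus markers, which a hippocampal dissection can carry along, summed to 2449 CPM in untreated replicate 1 and to between 6.81 and 47.7 CPM in the other 9 animals. On the first principal component of all tested genes (35.7% of the variance), untreated replicate 4 lay at 11.5, among the RG2833 animals (9.18 to 25.3) and apart from the other untreated animals (-27.8 to -13.8). Summed microglia markers ran from 428 to 693 CPM in untreated and from 426 to 539 CPM in RG2833 animals (1 of 8 called lower by edgeR), and vascular markers from 302 to 427 and from 271 to 315 CPM (0 of 8 called by edgeR, 4 at an unadjusted p under 0.05, 2 called lower by DESeq2, median log2 fold change -0.28). None of these markers was at 0 in all animals. In whole tissue, fewer cells of a type and less RNA per cell cannot be told apart.

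Fos, Fosb and Junb rose in the RG2833 group, and the other 5 members were not called. Calls were made at 0.05 on the p of edgeR's quasi-likelihood test after Benjamini-Hochberg adjustment over all 11791 genes. Of the 8 members 3 were called, all higher in RG2833 animals, where 2.41% of all tested genes were called higher and 2.67% lower. The members' fold changes ran from -0.11 for Jun to 1.45 for Fos on the log2 scale, and the median over all tested genes was -0.0035. Members were read as estimated counts per gene, which pool splice forms, so that full-length and truncated Fosb transcripts (the ΔFosB form) were counted together.

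Among the Fos proteins, Fos is the classical activity marker. In untreated animals its level was 8.58, 11.0, 3.80, 8.66 and 6.66 CPM in replicates 1 to 5, from 41 to 110 counts. In RG2833 animals it was 30.8, 16.3, 32.04, 9.72 and 16.6 CPM, from 94 to 323 counts. RG2833 replicates 1 and 3 were the highest animals, and 4 of the 5 RG2833 animals lay above every untreated animal. RG2833 replicate 4 was the exception, since its 9.72 CPM lay below the 11.0 CPM of untreated replicate 2. The mean rose from 7.74 ± 2.68 to 21.1 ± 9.83 CPM (SD, n = 5 each). This was a 2.73-fold rise with a 95% interval from 1.66-fold to 4.504-fold (log2 fold change 1.45 ± 0.33, SE; edgeR adjusted p = 0.0334).

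Fos also spread widely between animals of one group. Its biological coefficient of variation (edgeR's estimate of the relative spread between animals beyond counting error) was 0.352, against a median of 0.134 over the 1813 genes within 0.5 log2 units of its level, and 98.3% of those genes spread less. Within the RG2833 group the highest Fos level was 3.29 times the lowest, and within the untreated group 2.89 times. For Fosb the same ratios were 1.598 and 1.90. Other members also spread more than most genes at their level. The share of such genes that spread less was 97.6% for Atf3, 92.3% for Fosl2, 88.3% for Fosb and 87.7% for Jun. It was 86.2% for Junb, 76.4% for Fosl1 and 61.4% for Jund.

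Fosb, whose truncated protein (not measured here) outlasts Fos after repeated activity, was 13.7, 26.1, 19.3, 15.3 and 21.3 CPM in untreated replicates 1 to 5. It was 37.5, 35.0, 39.8, 32.1 and 24.9 CPM in RG2833 replicates 1 to 5. The overlap came from 1 animal on each side, since RG2833 replicate 5 lay just below untreated replicate 2 and the other 4 RG2833 animals lay above all untreated ones. The mean rose from 19.1 ± 4.92 to 33.8 ± 5.77 CPM (SD, n = 5 each), 1.77-fold with a 95% interval from 1.37-fold to 2.29-fold (log2 fold change 0.82 ± 0.17, SE; edgeR adjusted p = 0.0251).

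Fosl1 and Fosl2 (also called Fra-1 and Fra-2) encode later-acting Fos proteins that lack the strong activation domain of Fos. Fosl1 ran from 2.29 to 5.96 CPM with a median of 3.30 in untreated and from 3.91 to 6.15 CPM with a median of 4.92 in RG2833 animals. Its log2 fold change of 0.37 had a 95% interval from -0.18 to 0.91 (edgeR adjusted p = 0.390). It was 0.24 without untreated replicate 1 and 0.60 without untreated replicate 4 (edgeR adjusted p = 0.598 and 0.0959). Fosl2 split the untreated animals, with 13.6 and 14.0 CPM in replicates 3 and 5 and 6.18, 6.89 and 7.45 CPM in replicates 1, 2 and 4. In RG2833 animals it ran from 8.17 CPM in replicate 3 to 13.9 CPM in replicate 5, inside the untreated range. The log2 fold change of Fosl2 was 0.26 with a 95% interval from -0.26 to 0.78 (edgeR adjusted p = 0.535). It ran from 0.14 without untreated replicate 1 to 0.43 without untreated replicate 5, and it was 0.67 with the ribosomal RNA share in the fit, none of them called. Untreated replicates 3 and 5, the highest for Fosl2, were the lowest of their group for Fos.

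**Figure D1:**
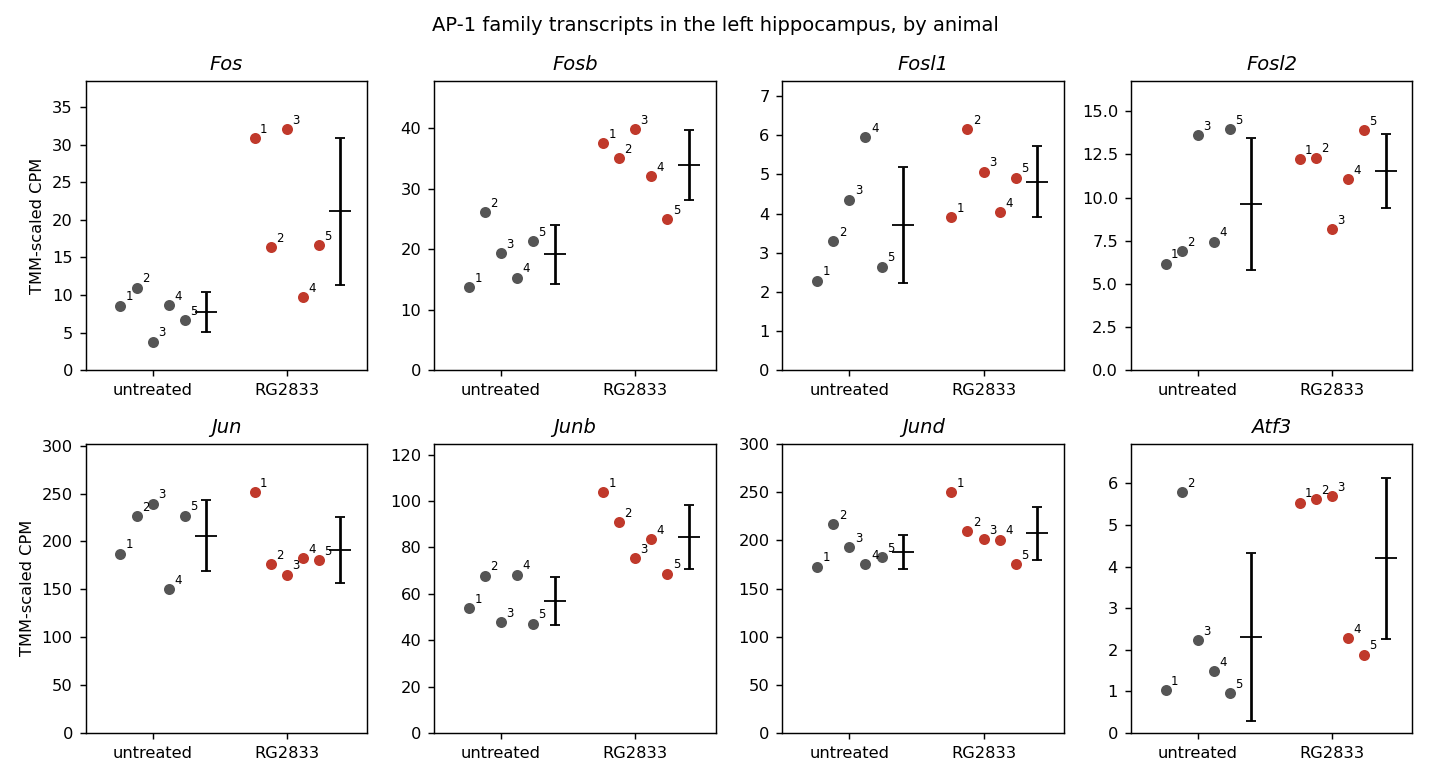
Level in CPM (y axis, from 0, a separate scale for each gene) of the 8 members in the 5 untreated (grey) and 5 RG2833 animals (red). Each point is an animal with its replicate number, and the bar beside each group is the mean ± SD. Fos, Fosb and Junb sit higher in the RG2833 group, with 1 RG2833 animal below the highest untreated animal for Fos and for Fosb.

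Among the Jun proteins, Junb is an immediate-early gene that often follows Fos, whereas Jun, the founding member, is activated by the JNK kinases. Junb was 53.7, 67.7, 47.7, 68.1 and 47.1 CPM in untreated replicates 1 to 5 and 104, 90.7, 75.3, 83.4 and 68.6 CPM in RG2833 replicates 1 to 5. Each RG2833 animal lay above each untreated animal, by as little as the step from 68.1 CPM in untreated replicate 4 to 68.6 CPM in RG2833 replicate 5. In the values that the authors deposited after their own TMM scaling, these animals were at 68.3 and 68.2, so the separation depends on the scaling. Among all tested genes 3.80% lay wholly higher in RG2833 animals and 3.47% wholly lower. The mean rose from 56.9 ± 10.4 to 84.4 ± 13.7 CPM (SD, n = 5 each), 1.48-fold with a 95% interval from 1.21-fold to 1.82-fold (log2 fold change 0.57 ± 0.14, SE; edgeR adjusted p = 0.0362).

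Jun did not pass. It was 187, 226, 240, 150 and 227 CPM in untreated replicates 1 to 5, and 251.7, 176, 165, 182 and 180 CPM in RG2833 replicates 1 to 5. RG2833 replicate 1 held the highest value of all 10 animals, and the other 4 RG2833 animals lay below 4 of the 5 untreated ones. The log2 fold change of Jun was -0.11 with a 95% interval from -0.41 to 0.20 (edgeR adjusted p = 0.671). It ran from -0.23 without RG2833 replicate 1 to -0.054 without untreated replicate 3, and with the ribosomal RNA share or the excitatory neuron score in the fit it was 0.45 or 0.23, none of them called.

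Jund, the steadily expressed Jun gene, ran from 173 to 217 CPM with a median of 183 in untreated and from 175 to 250 CPM with a median of 202 in RG2833 animals. The groups overlapped over most of their range, and only RG2833 replicate 1 lay above every untreated animal. The log2 fold change of Jund was 0.14 with a 95% interval from -0.07 to 0.35 (edgeR adjusted p = 0.397). Without RG2833 replicate 1 it was 0.064, and with the ribosomal RNA share in the fit it was 0.50, neither called.

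Promoter sequence was read for the members from the RefSeq table of the rat build GRCr8, which differs from the build rn6 named in the submitters' processing notes. It held 5 of the 8 members, Fosb, Fosl1, Fosl2, Junb and Jund. The 250 bases before the annotated start were searched on both strands for the full cAMP response element TGACGTCA, its half-site TGACG (each full element holds 2 overlapping half-sites), the AP-1 site TGANTCA and the CArG box, the site of SRF. Of 33469 annotated promoter windows of this length, 1.59% held the full element, 18.2% the half-site, 6.34% the AP-1 site and 1.497% a CArG box. The windows of Fosb and Junb, called higher, and of Jund, not called, are given 5′ to 3′ on the strand of the gene, with matches to these motifs in capitals. They lie at chr1:88089185-88089434 (minus strand) for Fosb, chr19:40080876-40081125 (plus strand) for Junb and chr16:18769772-18770021 (minus strand) for Jund.
Fosb: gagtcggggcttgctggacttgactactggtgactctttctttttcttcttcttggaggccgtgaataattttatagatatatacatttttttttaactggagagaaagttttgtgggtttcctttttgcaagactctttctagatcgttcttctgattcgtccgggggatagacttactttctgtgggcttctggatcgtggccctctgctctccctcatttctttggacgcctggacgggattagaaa
Junb: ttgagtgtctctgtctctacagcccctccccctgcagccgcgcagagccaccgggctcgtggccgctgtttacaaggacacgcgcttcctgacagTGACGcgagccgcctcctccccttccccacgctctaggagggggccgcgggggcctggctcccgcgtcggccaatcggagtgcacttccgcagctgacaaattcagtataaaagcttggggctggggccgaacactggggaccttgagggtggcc
Jund: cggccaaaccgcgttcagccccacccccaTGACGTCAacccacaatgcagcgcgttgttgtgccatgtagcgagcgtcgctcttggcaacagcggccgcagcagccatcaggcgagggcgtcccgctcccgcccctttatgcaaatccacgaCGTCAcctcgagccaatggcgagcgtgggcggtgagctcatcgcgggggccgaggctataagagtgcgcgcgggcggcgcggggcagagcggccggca
Junb held 1 half-site, TGACG, whose first base lies 155 bases before the start. Jund held the full element with its first base 221 bases before the start, and a half-site on the opposite strand, CGTCA, beginning 98 bases before it. Fosb and Fosl2 held no match to the 4 motifs in this window, and Fosl1 held 2 half-sites on the opposite strand, beginning 148 and 84 bases before its start.

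Atf3 gave few counts, from 9 to 63 per library. Untreated animals held 1.03, 5.79, 2.22, 1.49 and 0.952 CPM in replicates 1 to 5, and RG2833 animals 5.53, 5.62, 5.68, 2.28 and 1.88 CPM. RG2833 replicates 1, 2 and 3 lay together near the level of untreated replicate 2, and RG2833 replicates 4 and 5, at 2.28 and 1.88 CPM, lay near untreated replicate 3. The log2 fold change of 0.86 had a 95% interval from -0.19 to 1.91 (edgeR adjusted p = 0.292). Without untreated replicate 2 it was 1.54 and still did not pass (edgeR adjusted p = 0.0698). With the ribosomal RNA share in the fit it was 2.748 ± 0.82 (SE) and was not called (edgeR adjusted p = 0.9999). The spread of Atf3 was also wide, with a biological coefficient of variation of 0.51 against a median of 0.207 at similar levels.

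Each member was also compared by a two-sided exact permutation test of the mean log2 CPM, whose smallest p with 5 animals against 5 is 0.00794. These p-values were not adjusted over the 8 members, and the test was not run over all genes. By edgeR, 24.5% of all tested genes had an unadjusted p under 0.05. The permutation p was 0.0159 for Fos, 0.0159 for Fosb and 0.00794 for Junb (exact permutation tests). For Atf3, Fosl1, Jund, Fosl2 and Jun it was 0.127, 0.159, 0.222, 0.317 and 0.508 (exact permutation tests). Leaving out untreated replicate 4 gave 0.0397 for Fosl1, and leaving out untreated replicate 2 gave 0.0397 for Atf3 (unadjusted exact permutation tests).

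The 3 calls sat close to the threshold and depended on single animals. Fos was called in 4 of the 10 fits that each left out 1 animal, those without untreated replicates 2, 4 or 5 or RG2833 replicate 4. In the 6 fits without untreated replicate 1 or 3 or RG2833 replicate 1, 2, 3 or 5, its edgeR adjusted p lay between 0.0609 and 0.0859. Fosb was called without untreated replicates 2, 4 or 5 or RG2833 replicate 5, and in the 6 fits without untreated replicate 1 or 3 or RG2833 replicate 1, 2, 3 or 4 its edgeR adjusted p lay between 0.0505 and 0.0711. Junb was called without untreated replicates 2, 4 or 5, and in the 7 fits without untreated replicate 1 or 3 or any 1 RG2833 animal its edgeR adjusted p lay between 0.0564 and 0.0950. The fold changes moved less. Over these 10 fits the log2 fold change ran from 1.25 to 1.63 for Fos, from 0.73 to 0.96 for Fosb and from 0.48 to 0.64 for Junb. Without untreated replicate 1, the library with choroid plexus transcripts, the log2 fold changes of Fos, Fosb and Junb were 1.49, 0.73 and 0.55, and 0 members were called by edgeR (adjusted p = 0.0609, 0.0505 and 0.0749). Without untreated replicate 4, the log2 fold changes of Fos, Fosb and Junb were 1.497, 0.75 and 0.64, and all 3 were called by edgeR (adjusted p = 0.0205, 0.0171 and 0.0109). Of all tested genes 1.63% were called without untreated replicate 1 and 13.1% without untreated replicate 4. With all animals, an edgeR fit that took the ribosomal RNA share as covariate gave log2 fold changes of 1.28 ± 0.65 for Fos, 1.31 ± 0.32 for Fosb and 0.81 ± 0.26 for Junb (SE). It called 0 members and 2 genes in all. With the excitatory neuron marker score as a covariate the values were 1.35 ± 0.47, 0.92 ± 0.25 and 0.48 ± 0.18, with 0 members and 5 genes called in all. The ribosomal RNA share and the treatment cannot be told apart in these animals, because the groups do not overlap in it.

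**Figure D2:**
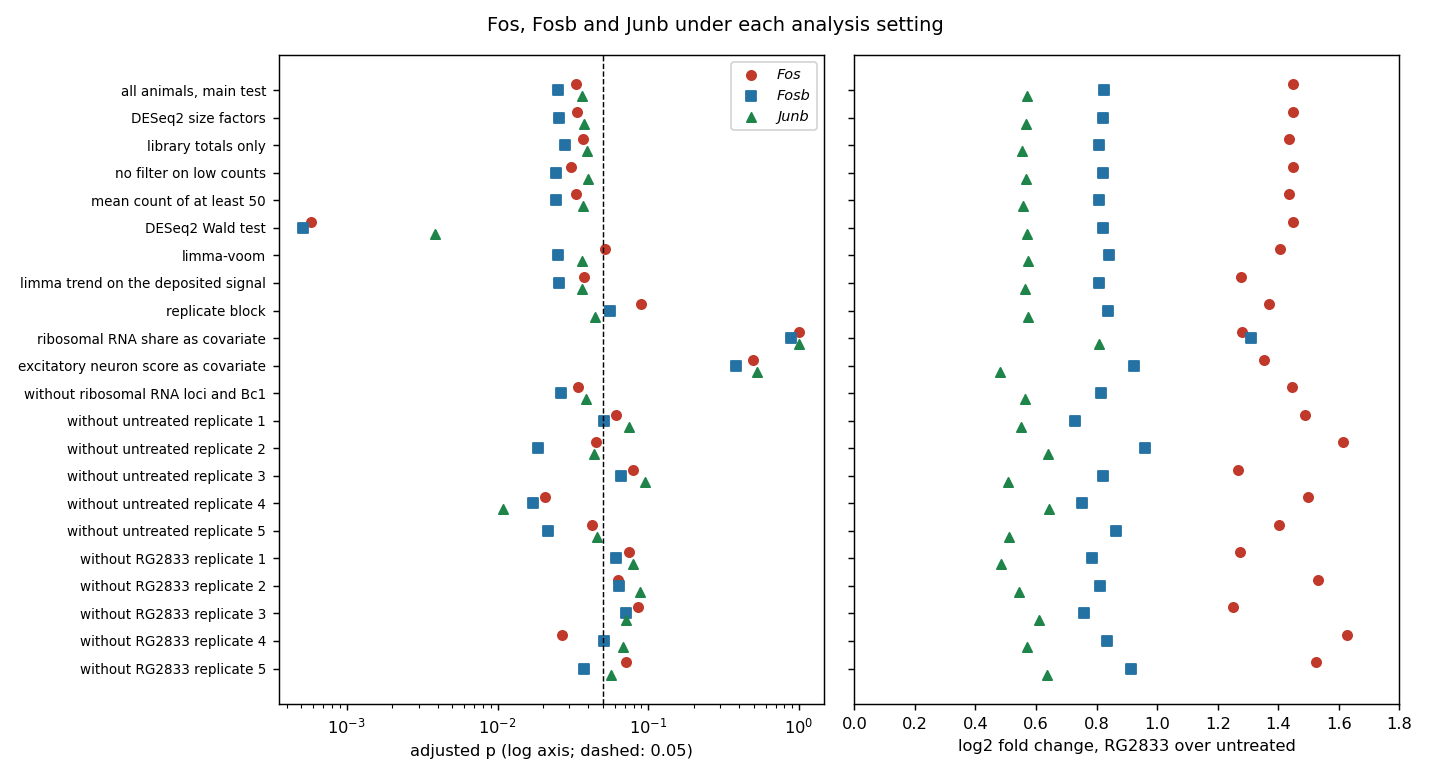
Adjusted p (left, log axis, dashed line at 0.05) and log2 fold change of RG2833 over untreated (right) of Fos (circles), Fosb (squares) and Junb (triangles) in each analysis setting, 1 setting per line. The fold changes stay above 0 in every setting shown, whereas the adjusted p crosses 0.05 when single animals are left out and lies far above it with either covariate.

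Whether members changed by different amounts was tested within animals, as the difference in log2 CPM between 2 members, for 8 pairs. The change in Fos exceeded that in Jun by 1.48 (exact permutation p = 0.0159, adjusted over the 8 pairs p = 0.0635) and that in Jund by 1.24 (exact permutation p = 0.0317, adjusted p = 0.0635). The change in Junb exceeded that in Jun by 0.68 (exact permutation p = 0.0238, adjusted p = 0.0635) and that in Jund by 0.44 (exact permutation p = 0.0159, adjusted p = 0.0635). For Fos against Junb and Fosb the excess was 0.80 and 0.53 (exact permutation p = 0.0635 and 0.190), and for Fosb against Fosl2 it was 0.51 (exact permutation p = 0.175). For Jun against Jund the value was -0.24 (exact permutation p = 0.0714). Without untreated replicate 3 the excess of Fos over Fosb was 0.29, and without RG2833 replicate 3 that of Fosb over Fosl2 was 0.34. By these exact permutation tests 4 of the 8 pairs had an unadjusted p under 0.05 and 0 had an adjusted p under 0.05. With 8 pairs, 1 pair alone cannot fall below an adjusted p of 0.0635. Leaving out untreated replicate 4 gave 4 pairs under an adjusted p of 0.05 (Fos and Junb against Jun, Junb against Jund, and Jun against Jund), and leaving out RG2833 replicate 4 gave 4 as well (Fos against Jun, Jund and Junb, and Junb against Jund).

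The other genes of the pathway were taken from 4 lists. They were read with the same fit over all genes. Among bZIP partners and relatives, 15 of 20 listed genes were tested and 1 rose, Jdp2, where 2.41% of all tested genes were called higher. Jdp2, which pairs with Jun proteins and represses AP-1 sites, had a log2 fold change of 0.65 ± 0.15 (SE; 95% interval 0.33 to 0.97; edgeR adjusted p = 0.0328). Cebpd, a bZIP gene of the C/EBP family, was next at 0.78 ± 0.22 (SE; edgeR adjusted p = 0.0587), and Atf5 was at 0.46 ± 0.16 (SE; edgeR adjusted p = 0.104). Nfe2l2, the oxidative stress factor Nrf2, was at -0.30 ± 0.10 (SE; edgeR adjusted p = 0.0822). DESeq2, limma-voom and limma trend called Cebpd higher (adjusted p = 0.0102, 0.0394 and 0.0410), DESeq2 called Nfe2l2 lower (adjusted p = 0.0407), and edgeR without untreated replicate 4 called Cebpd (log2 fold change 1.05, adjusted p = 0.00171) and Atf5 (0.59, adjusted p = 0.0208). The median log2 fold change of this list was 0.20.

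Regulators through which SRF, CREB and MEF2 factors act on immediate-early genes formed the next list, of 19 symbols (2 of its genes under 2 symbols each). Of these, 12 were in the deposited tables and all 12 were tested. The other symbols, among them Mef2c, Ep300 and Crtc3, were absent from the deposited tables, so the list is incomplete. Of the 12, 10 had a log2 fold change above 0, where 49.4% of all tested genes did, and 3 rose, where 2.41% of all tested genes were called higher. Mef2d, an activity-regulated MEF2 factor, rose by 0.79 ± 0.16 on the log2 scale (SE; edgeR adjusted p = 0.0241), and Mef2a by 0.52 ± 0.13 (SE; edgeR adjusted p = 0.0456). Scaled by library totals only, Mef2a was at 0.50 and was not called (edgeR adjusted p = 0.0567). Crtc1, the CREB coactivator that enters the nucleus on synaptic activity, rose by 0.60 ± 0.12 (SE; edgeR adjusted p = 0.0241). In these 3 genes and in Crtc2, which was not called, each RG2833 animal lay above each untreated animal, as in 3.80% of all tested genes. Crtc2 was at 0.26 ± 0.08 (SE; edgeR adjusted p = 0.0644). Srf itself was at 0.29 ± 0.08 (SE; edgeR adjusted p = 0.0644), and Creb1 at -0.06 ± 0.19 (SE; edgeR adjusted p = 0.878). The median log2 fold change of this list was 0.22.

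The next list held ERK, JNK and p38 pathway genes, whose kinases act on Jun, Fos and their regulators directly or through other kinases. Of the 24 listed genes, all 24 were tested. By edgeR 0 were called, with 4 higher and 5 lower at an unadjusted p under 0.05 where 24.5% of all tested genes met that limit, whereas DESeq2 called 2 higher and 1 lower where it called 11% of all tested genes, and limma-voom called 0. Mapk13, a p38 kinase gene at low level, was nearest to a call. Its level was 2.73 ± 1.06 CPM without and 1.28 ± 0.32 CPM with RG2833 (SD, n = 5 each), a difference on the log2 scale of -1.07 ± 0.29 (SE; adjusted p = 0.0502 by edgeR), and it was called with DESeq2's size factors in the same edgeR test (adjusted p = 0.0494). Map3k11 and Map3k5, upstream kinases of JNK, were at 0.24 ± 0.07 and 0.52 ± 0.16 (log2, SE; edgeR adjusted p = 0.0653 and 0.0782). Each RG2833 animal lay below each untreated animal for Mapk13, as in 3.47% of all tested genes. For Map3k11 each RG2833 animal lay above each untreated animal, as in 3.80% of them. Mapk8, which encodes the Jun kinase JNK1, was at -0.25 ± 0.10 (log2, SE; edgeR adjusted p = 0.129).

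Among genes reported as AP-1 targets in neurons, 23 of 27 listed genes were tested. Of these 1 rose, where 2.41% of all tested genes were called higher. A log2 fold change above 0 was found in 13 of the 23, near the 49.4% of all tested genes, and the median was 0.06. The gene called was Camk2a, the calcium kinase of synaptic plasticity, from 824 ± 205 to 1313 ± 243 CPM (SD, n = 5 each; log2 fold change 0.67 ± 0.17, SE; edgeR adjusted p = 0.0459). Gap43, a growth cone gene, was at -0.46 ± 0.15 (log2, SE; edgeR adjusted p = 0.0898). Nptx2, the synaptic pentraxin, was at 0.49 ± 0.17 and Bdnf, the neurotrophin, at 0.33 ± 0.12 (log2, SE; edgeR adjusted p = 0.101 and 0.115).

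The called pathway genes also depended on single animals. Jdp2 was called in 3 of the 10 fits that left out 1 animal, Mef2d and Crtc1 in 5, Mef2a in 2 and Camk2a in 1. For Jdp2, leaving out untreated replicate 1 or 3 or any 1 RG2833 animal gave an edgeR adjusted p between 0.0522 and 0.0859. Leaving out untreated replicate 3 or RG2833 replicate 1, 2, 3 or 5 gave between 0.0568 and 0.0720 for Mef2d and between 0.0551 and 0.0720 for Crtc1 (edgeR adjusted p). Mef2a, without untreated replicate 1, 2 or 3 or any 1 RG2833 animal, lay between 0.0656 and 0.119, and Camk2a, without any animal other than untreated replicate 4, between 0.0563 and 0.122 (edgeR adjusted p). Without untreated replicate 4 the number of called genes over the 4 lists rose from 5 to 17, while the share of all tested genes called rose from 5.08% to 13.1%. Among the 4 genes of smallest p in each list, Cebpd, Atf5, Crtc2, Mapk13, Map3k5, Mapk8, Gap43, Nptx2 and Bdnf then also passed (edgeR adjusted p from 0.00171 to 0.0467). Among the same genes, DESeq2 with all animals also called Cebpd, Nfe2l2, Crtc2, Mapk13, Map3k11, Map3k5 and Gap43 (adjusted p from 0.0102 to 0.0407), where it called 11% of all tested genes. All 10 such fits kept a positive log2 fold change for each of Jdp2, Mef2d, Crtc1, Mef2a and Camk2a. With the ribosomal RNA share in the edgeR fit, the log2 fold changes of Jdp2, Mef2d, Crtc1, Mef2a and Camk2a were 0.36, 0.60, 0.51, 0.18 and 0.48, and with the excitatory neuron score they were 0.30, 0.54, 0.36, 0.30 and 0.37, and none was called in either fit (adjusted p from 0.505 to 0.9999).

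**Figure D3:**
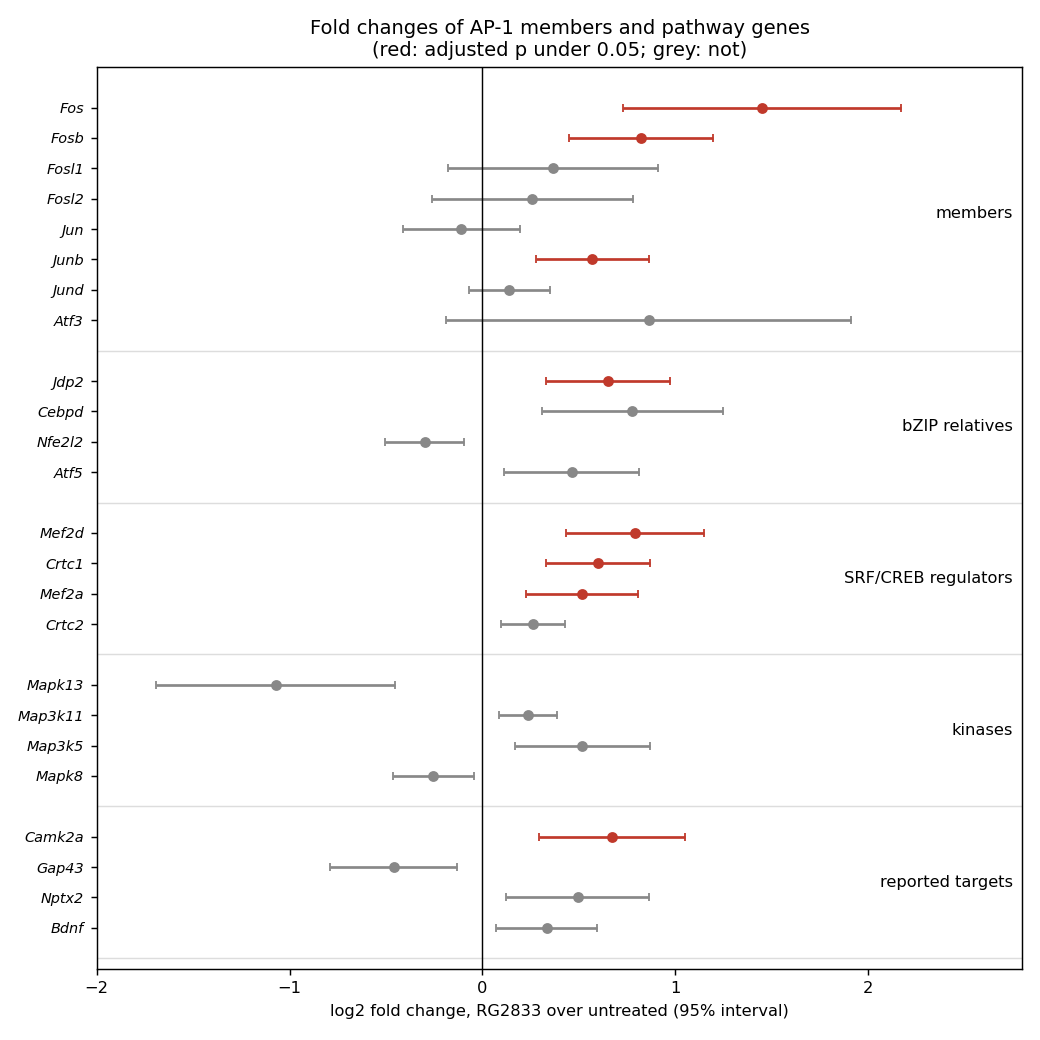
Log2 fold change of RG2833 over untreated (x axis) with its 95% interval for the 8 members and for the 4 genes of each pathway list with the smallest p. Red points had an adjusted p under 0.05 and grey points did not. Fos, Fosb and Junb among the members, Jdp2, 3 regulators of Fos transcription and Camk2a are the red points.

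To see whether animals with more of one member also held more of another apart from treatment, each animal was expressed as its deviation from its group mean in log2 CPM. Pearson's r and Spearman's rho over the 10 animals were computed for the 28 pairs of members, with exact permutation of animals within each group. Of the 28 pairs 18 had a positive r. By exact permutation of r, 4 pairs lay under 0.05 before adjustment and 0 after it (smallest adjusted p = 0.111). The highest r was that of Jund with Atf3, 0.78 (exact permutation p = 0.00396, adjusted p = 0.111; rho 0.79, exact permutation p = 0.0131, adjusted p = 0.350), and without the 2 animals farthest from the median of Jund it was 0.73. Fosb with Atf3 had an r of 0.77 (exact permutation p = 0.0158, adjusted p = 0.147; rho 0.70, exact permutation p = 0.0375, adjusted p = 0.350), and 0.66 without the 2 farthest animals. Fosb with Jund also had an r of 0.77 (exact permutation p = 0.0122, adjusted p = 0.147; rho 0.71, exact permutation p = 0.0375, adjusted p = 0.350), and 0.61 without the 2 farthest animals. Jun with Jund had an r of 0.69 (exact permutation p = 0.0494, adjusted p = 0.293; rho 0.59, exact permutation p = 0.0983, adjusted p = 0.483). Without untreated replicate 4 and RG2833 replicate 1 the r of Jun with Jund was 0.36. It was 0.45 without RG2833 replicate 1 alone and 0.74 without untreated replicate 4 alone. Leaving out untreated replicate 5 gave 1 pair under an adjusted p of 0.05 (Fosb with Atf3, r 0.95, adjusted exact permutation p = 0.0292), and leaving out RG2833 replicate 3 gave 2 (Fosb with Jund, r 0.84, and Jund with Atf3, r 0.83, each with an adjusted exact permutation p of 0.0438).

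Fos and Fosb were lowest in different animals of each group. Its r with Fosb was 0.28 (exact permutation p = 0.434, adjusted p = 0.778; rho 0.45, exact permutation p = 0.186, adjusted p = 0.578), and 0.48 without untreated replicate 3 and RG2833 replicate 4. Leaving out 1 animal, it ran from 0.10 without untreated replicate 2 to 0.43 without untreated replicate 1. With Junb it was 0.46 (exact permutation p = 0.208, adjusted p = 0.486; rho 0.38, exact permutation p = 0.333, adjusted p = 0.621), and 0.47 without those 2 animals. With Jun it was -0.04 (exact permutation p = 0.913, adjusted p = 0.988; rho -0.19, exact permutation p = 0.630, adjusted p = 0.955), and 0.22 without them. The lowest r of all 28 pairs was that of Fos with Fosl2, -0.59 (exact permutation p = 0.0585, adjusted p = 0.293; rho -0.54, exact permutation p = 0.0830, adjusted p = 0.483), and -0.65 without them. Fos was lowest relative to its group in untreated replicate 3 (-0.91) and RG2833 replicate 4 (-0.97), where Fosb deviated by 0.05 and -0.06. Untreated replicate 2 was above its group mean for Fos, Fosb, Jun, Junb, Jund and Atf3, and RG2833 replicate 1 was so for these genes and Fosl2.

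**Figure D4:**
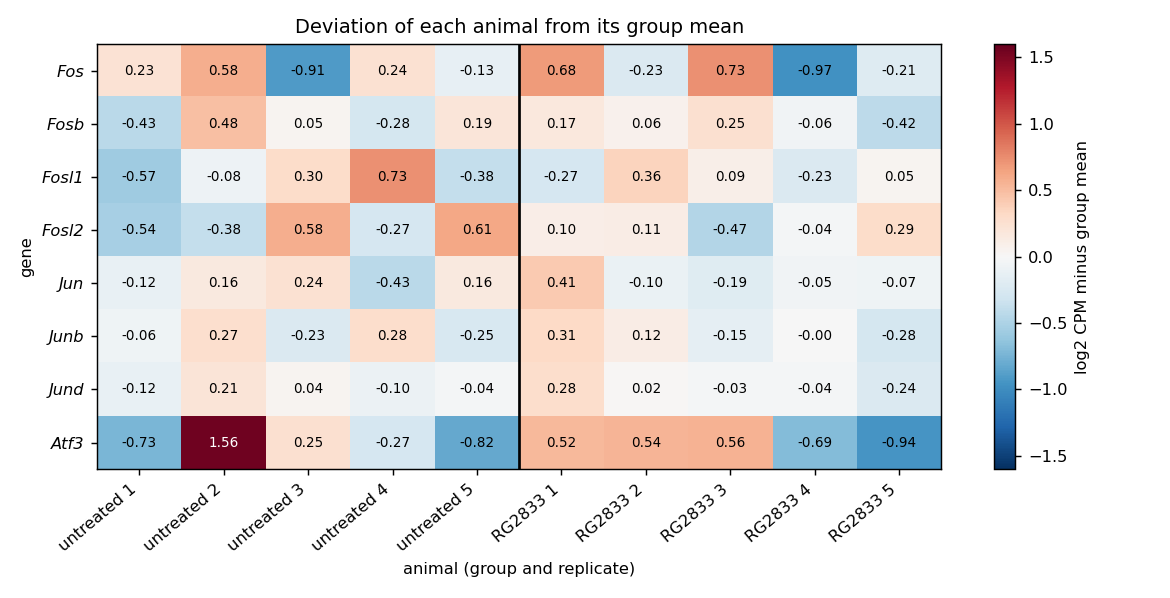
Deviation of each animal (x axis) from its group mean in log2 CPM for the 8 members (y axis), red above and blue below the mean, with the black line between the groups. Untreated replicate 2 and RG2833 replicate 1 are above the mean for Fos, Fosb, Jun, Junb, Jund and Atf3 (RG2833 replicate 1 also for Fosl2), and Fos is lowest in untreated replicate 3 and RG2833 replicate 4.

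Within groups, the 3 called members were also set against the 2 library measures that moved with treatment, 6 relations chosen after their values were seen. With the log2 ribosomal RNA share, r was -0.15 for Fos, 0.53 for Fosb and 0.32 for Junb over the 10 animals, and rho was -0.32, 0.36 and 0.14 (exact permutation p for r 0.685, 0.163 and 0.380 and for rho 0.339, 0.385 and 0.716). With the excitatory neuron score, r was 0.16, -0.15 and 0.25 and rho 0.18, 0.20 and 0.03 (exact permutation p for r 0.638, 0.764 and 0.630 and for rho 0.604, 0.630 and 0.941). Adjusted over the 6 relations, each p for r was 0.764, and those for rho were 0.859 or 0.941. Without the 2 animals farthest from the median of the measure, the 6 values of r lay between -0.24 and 0.50.

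The genes most like Fos, Junb and Jun in these deviations were listed as a description, from the 6 highest values of Pearson's r over 10 animals among 11260 genes outside the family with a mean log2 CPM of at least 1. For Fos they included Rbm3 (r 0.93), Cpne1, Ppfia1, Ssrp1 and Fam135a (0.89 to 0.90). For Junb they were Bet1l (0.95), Clec10a (0.93), Sh3bgrl3, Per1, Acbd4 and Dnal4 (0.90 to 0.92). For Jun they were Usp51 (0.98), Cryz (0.94), Nog, Atpaf1, Smg6 and Hk1 (0.91). All values share the same 10 libraries, and the highest of so many correlations over 10 animals are high by selection. Of the genes named here by likeness, only Dnal4, a dynein light chain gene, was called (log2 fold change 0.30, edgeR adjusted p = 0.0449), against 5.08% of all tested genes.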

How the data were processed

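Strand-specific mRNA libraries of the left hippocampus were sequenced from 10 animals, per the labels' protocols. The submitters' processing notes name bcl2fastq 2.17, Bowtie2 2.1.0, RSEM 1.2.15, edgeR and the build rn6, without their roles. The annotation and the strand setting of the counting are not given in the sources used here, so reads of a gene and an antisense partner may not be separated. The authors deposited RSEM expected counts per gene, which were rounded to whole counts here. The authors also deposited a normalized signal, counts per 1000000 scaled by TMM (which takes most genes as unchanged), used for the limma trend alternative and for comparison; it differed from the recomputed CPM of the members by at most 0.705%.

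Columns were matched to samples by title. Low counts were removed with filterByExpr, and edgeR 4.0.16 (R 4.3.3) fitted all 10 animals with TMM scaling and no covariate. SE is the log2 fold change over the square root of F. Log2 CPM used a prior count of 2. Alternatives used DESeq2 1.42.0 and limma 3.58.1. Libraries of a group differed by more than counting noise (chi-square per degree of freedom 4.74 to 37.9). The scripts were tested on simulated data. The floor of 3 counts lies between 0.265 and 0.342 CPM and covers counting error only. Named genes are the members, the called genes and the 4 smallest p of each list, and the 6 genes most like Fos, Junb and Jun, of which 1 is not reported here; Srf and Creb1 were added after their values were seen. The members, lists and tests were chosen with earlier results of these data known.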

Additional observations from a re-analysis of the deposited data

Results flagged for a closer look

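Among the 16 groups of 5 values (8 members in 2 groups), 2 held an animal whose gap to the next, divided by the group's range, was above Dixon's limit of 0.71, where chance flags about 1 in 20, or 0.8 of 16. For Atf3 it was untreated replicate 2, with 5.79 CPM where the rest of its group ran from 0.952 to 2.22 CPM (ratio 0.737). For Jun it was RG2833 replicate 1, with 251.7 CPM where the rest of its group ran from 165 to 182 CPM (ratio 0.801).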

How the results depend on the processing

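The count of 3 members called was 2 with limma-voom, which lost Fos (adjusted p = 0.0513), and 3 under the other scalings, filters and tools. It was 1 with the replicate block, 0 with the ribosomal RNA share in the fit and 0 with the excitatory neuron score, and 0 to 3 over the fits that left out 1 animal; the cause was not tested. Over all genes, the 599 calls became 1295 with DESeq2's Wald test, 180 with the replicate block, 2 with the ribosomal RNA share, 5 with the excitatory neuron score and 98 to 1556 when 1 animal was left out. The count of 5 pathway genes was 13 with DESeq2's Wald test, 1 with the replicate block, 0 with either covariate and 0 to 17 over the fits that left out 1 animal. The 3 members with an unadjusted exact permutation p under 0.05 became 0 with the replicate block, where 5 pairs cannot give a p below 0.0625, and were 3 to 4 when 1 animal was left out. The count of 0 differing pairs of members ran from 0 to 4, and that of 0 covarying pairs from 0 to 2, when 1 animal was left out. Animals that share a number across groups are separate rats; their deviations correlated at a mean of -0.066 with 1 of the 5 untreated animals closest to its own number, so no pairing was used; with the replicate block, edgeR adjusted p-values were 0.0897 for Fos, 0.0561 for Fosb and 0.0444 for Junb.

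Jun changed sign to 0.45 with the ribosomal RNA share and to 0.23 with the excitatory neuron score, Fosl1 to -0.11 and Gap43 to 0.024 with the excitatory neuron score, and Map3k5 to -0.021 with the ribosomal RNA share. The r of Fos with Jun ran from -0.43 to 0.21 when 1 animal was left out; it became 0.0099 with library totals only, and 0.21, 0.08 and 0.11 without untreated replicate 3, untreated replicate 4 and RG2833 replicate 3. Depth limits Atf3 and Fosl1 most, with as few as 9 and 20 counts in a library.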
